A study of Mus musculus with 38 samples.

Results

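Kupffer cells are the resident macrophages of the liver sinusoids, where they clear microbes, complement-coated particles and worn-out blood cells from the blood. They depend on signalling through the receptor for CSF1 and carry a set of genes that hepatocytes do not normally use. 10 marker genes of Kupffer cells and macrophages are described here out of 22485 genes measured in mouse liver. They were chosen by name, as known markers, but with earlier results of these data known. Each was read from its probe of highest mean. Clec4f, Vsig4 and Marco encode surface receptors that capture particles, namely a lectin found on mouse Kupffer cells, a complement receptor of the immunoglobulin superfamily and a scavenger receptor. Cd5l encodes a secreted protein of tissue macrophages that supports their survival, and C1qa, C1qb and C1qc encode the 3 chains of C1q, which starts the classical complement pathway. Csf1r encodes the receptor for CSF1 and IL-34, Adgre1 an adhesion receptor used as a surface antigen of mouse macrophages, and Cd68 a glycoprotein of macrophage lysosomes and endosomes. All 10 were measured, and no filter on low values was applied.

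Livers came from male mice aged 11 to 12 weeks of mixed FVB/N and C57Bl/6 background. In LIRFKO mice both the insulin receptor and FoxO1, a transcription factor that insulin restrains, are missing from hepatocytes, LIRKO mice lack the insulin receptor alone, and IR/FoxO1 floxed and IR floxed mice are the controls of each line. The deletions come from albumin-Cre, a recombinase expressed in hepatocytes, so macrophages are not the cells it targets. Mice were refed for 6 h after a fast, given glucose for 60 min, or killed fasted, and the labels give the fast both as 24 h and as overnight. Refed groups held 4 LIRFKO, 4 LIRKO, 3 IR/FoxO1 floxed and 4 IR floxed mice. Glucose groups held 3 LIRFKO, 3 LIRKO and 3 IR floxed mice. Fasted groups held 3 LIRFKO, 3 LIRKO, 3 IR/FoxO1 floxed and 4 IR floxed mice. Each of these 37 libraries is a separate mouse read in 1 dye channel of an Agilent two-colour array, and is called by its title, in which IRF.KO is LIRFKO, IR.KO is LIRKO, IRF.fl and IR.fl are the floxed lines and GTT is glucose.

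Insr, which encodes the insulin receptor, and Foxo1 were read as a check of the genotype labels. Insr ranged from 5.96 to 6.36 log2 in refed LIRFKO livers and from 6.30 to 6.68 in refed LIRKO livers, against 7.35 to 7.73 in refed IR/FoxO1 floxed and 7.77 to 8.14 in refed IR floxed livers. After glucose, Insr ranged from 6.65 to 7.805 in LIRKO livers, against 7.94 to 8.69 in IR floxed livers. Fasted, it ranged from 6.30 to 7.396 in LIRKO livers, against 8.14 to 9.045 in IR floxed livers. Its SD was 0.58 in glucose and 0.55 in fasted LIRKO livers, against 0.16 in refed LIRKO livers. Foxo1 ranged from 6.47 to 6.97 in refed LIRFKO livers, against 9.25 to 9.68 in refed IR/FoxO1 floxed livers. The library labelled IRF.fl_Fast_523 went against its label, with Foxo1 at 6.77 and Insr at 6.90, and median differences that use fasted IR/FoxO1 floxed mice are given with and without it. No count of markers that passed changed without it. Another library, IRF.KO_GTT_724, had conflicting labels and entered no comparison. Column medians lay between 5.72 and 5.78 log2, and the number of mice, not a read depth, limits the precision.

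The DNA before the start sites was read beside the levels. PU.1, an ETS family factor that macrophages need to form, has many sites that hold the letters GAGGAA. RefSeq windows of the 250 bases before the start (build GRCm38.p6) were read for 7 markers, Cd5l, Vsig4, C1qb, C1qc, Clec4f, Marco and Cd68. GAGGAA or its reverse complement TTCCTC was present in 6 of these 7 windows, all but that of Clec4f, and in 23.3% of all 32851 windows of this length. TGAGTCA or TGACTCA, the letters of an AP-1 site, was present in 1 of the 7, that of Cd68, and in 4.46% of all windows. A match describes the letters and is no measured site. Cd5l, Vsig4 and C1qb are shown as windows with a match and Clec4f as the window with none, each 5′ to 3′ on the strand of its gene, with the matched letters in capitals. They lie at chr3:87357631-87357880 on the plus strand, and at chrX:96293439-96293688, chr4:136886201-136886450 and chr6:83656117-83656366 on the minus strand.
Cd5l: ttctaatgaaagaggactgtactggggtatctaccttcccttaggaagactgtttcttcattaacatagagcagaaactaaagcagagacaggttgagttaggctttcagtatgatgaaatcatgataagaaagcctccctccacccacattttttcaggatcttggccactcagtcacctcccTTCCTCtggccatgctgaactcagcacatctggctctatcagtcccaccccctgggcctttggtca
Vsig4: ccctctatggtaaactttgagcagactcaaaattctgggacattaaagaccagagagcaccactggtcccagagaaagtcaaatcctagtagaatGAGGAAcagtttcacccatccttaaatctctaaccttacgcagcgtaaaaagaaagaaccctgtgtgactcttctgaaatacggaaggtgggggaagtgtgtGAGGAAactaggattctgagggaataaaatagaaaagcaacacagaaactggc
C1qb: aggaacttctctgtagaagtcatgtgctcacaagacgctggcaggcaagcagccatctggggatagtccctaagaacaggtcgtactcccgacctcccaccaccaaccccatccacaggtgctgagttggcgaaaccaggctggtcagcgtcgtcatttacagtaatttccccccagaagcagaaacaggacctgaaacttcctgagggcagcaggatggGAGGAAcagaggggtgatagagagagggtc
Clec4f: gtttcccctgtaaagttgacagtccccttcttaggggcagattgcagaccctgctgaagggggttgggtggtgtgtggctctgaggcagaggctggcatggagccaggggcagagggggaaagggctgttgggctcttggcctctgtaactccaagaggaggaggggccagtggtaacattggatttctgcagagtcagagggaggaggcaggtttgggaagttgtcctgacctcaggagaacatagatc

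All 10 markers had their highest group mean in refed LIRKO livers. The mean of the 10 log2 values was 9.99 ± 0.082 there (SD, n = 4), with a range from 9.87 to 10.05. These 4 libraries ranked above the other 33, of which the highest was IRF.KO_GTT_726 at 9.83. The other knockout groups followed, with fasted LIRKO livers at 9.46 ± 0.19, glucose LIRFKO livers at 9.38 ± 0.48, glucose LIRKO livers at 9.38 ± 0.32, refed LIRFKO livers at 9.19 ± 0.27 and fasted LIRFKO livers at 9.18 ± 0.33 (SD). The floxed groups came last, at 8.99 ± 0.19 in fasted IR floxed, 8.84 ± 0.29 in fasted IR/FoxO1 floxed, 8.72 ± 0.31 in refed IR/FoxO1 floxed, 8.61 ± 0.11 in refed IR floxed and 8.60 ± 0.32 in glucose IR floxed livers (SD). IRF.fl_Fast_523 was at 9.04, and the other two fasted IR/FoxO1 floxed livers were at 8.4996 and 8.9643. For single markers, the refed LIRKO livers stood clear of the group of next-highest mean for Vsig4, C1qa and Adgre1, and overlapped with it for the other 7. Single livers of groups further down still reached them for Vsig4 and Adgre1. IR.KO_GTT_697 was at 10.653 and 8.0013 for these genes, above IR.KO_Refed_564 at 10.489 and 7.7103. Further down the order, neighbouring groups overlapped for every marker, except that for Marco refed IR/FoxO1 floxed livers lay above glucose IR floxed livers. Whole liver was measured, so more macrophages and more of these RNAs per macrophage cannot be told apart, nor can fewer cells and less RNA per cell.

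**Figure D1:**
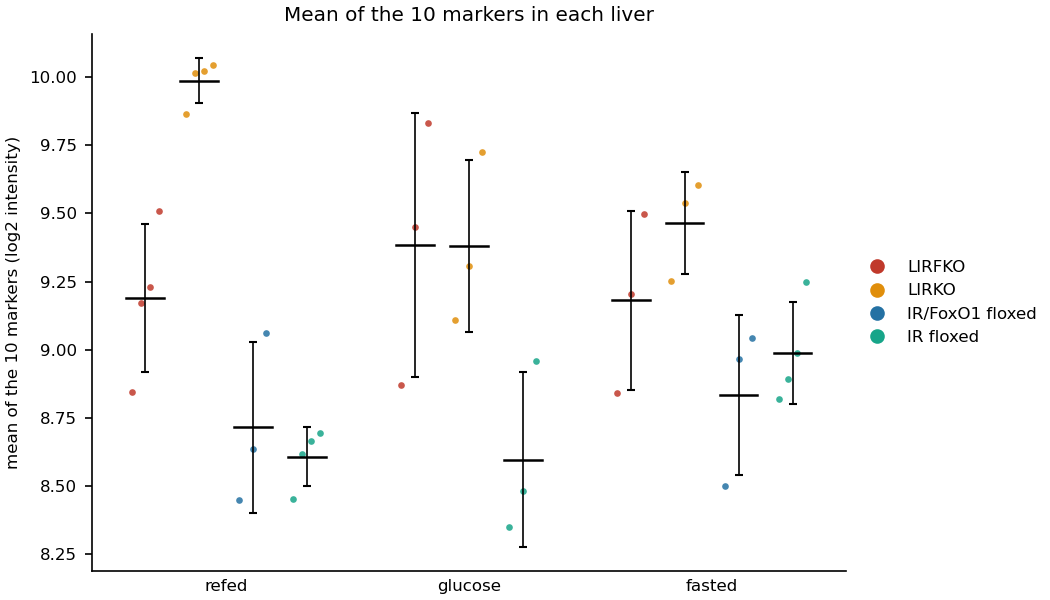
Mean of the 10 markers (log2 intensity) in each of the 37 livers, by feeding state and genotype. Points are mice, with group means and SD, and the 4 refed LIRKO livers lie between 9.87 and 10.05, above the other 33.

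The effect of losing the hepatocyte insulin receptor was read by setting LIRKO livers against IR floxed livers in the same state. In refed mice 9 of the 10 markers rose, where 11.6% of all genes passed in either direction and 6.95% in the upward one. All 4 LIRKO livers lay above all 4 IR floxed livers for each of the 10 markers, against 7.57% of all genes. The median difference of the 10 was 1.36 log2, and that of all genes was -0.0035. Here and below, differences are log2 values ± SE from a limma fit to all groups, a gene passes at an adjusted p under 0.05 (Benjamini-Hochberg over all genes), and levels are the deposited log2 intensities.

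Among the capture receptors, Clec4f had levels of 10.89, 11.51, 11.27 and 11.33 in refed LIRKO livers, against 9.79, 9.92, 10.06 and 9.69 in refed IR floxed livers. The groups lay well apart, with a difference of 1.38 ± 0.24 (adjusted p = 0.000208), or 2.6-fold. Vsig4 had levels of 10.72, 10.73, 10.49 and 10.73 in refed LIRKO livers, against 8.93, 9.08, 9.38 and 9.11 in refed IR floxed livers. LIRKO mice were close to each other and all above the controls, with a difference of 1.55 ± 0.25 (adjusted p = 7.17e-05). Marco had levels of 11.29, 11.23, 12.23 and 11.72 in refed LIRKO livers, against 10.07, 8.92, 8.58 and 10.24 in refed IR floxed livers. Marco varied most of the 10, with an SD of 1.06 over the 37 livers, and its groups were still apart, with a difference of 1.92 ± 0.44 (adjusted p = 0.00349).

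Of the secreted proteins, Cd5l had levels of 11.54, 11.89, 11.84 and 11.74 in refed LIRKO livers, against 9.35, 9.54, 9.88 and 10.23 in refed IR floxed livers. Its difference of 1.88 ± 0.27 (adjusted p = 2.6e-05), or 3.67-fold, had the lowest adjusted p of the 10. The 3 chains of C1q rose by similar amounts. C1qa had levels of 9.18, 9.35, 9.63 and 9.60 in refed LIRKO livers, against 8.01, 7.66, 8.40 and 8.14 in refed IR floxed livers, a difference of 1.33 ± 0.21 (adjusted p = 7.77e-05). C1qb had levels of 8.94, 9.09, 8.92 and 9.13 in refed LIRKO livers, against 7.95, 7.44, 8.07 and 7.92 in refed IR floxed livers, a difference of 1.22 ± 0.27 (adjusted p = 0.0024). C1qc had levels of 10.36, 10.15, 10.23 and 10.13 in refed LIRKO livers, against 8.71, 8.98, 9.002 and 8.88 in refed IR floxed livers, a difference of 1.28 ± 0.21 (adjusted p = 0.000137). The groups did not overlap for any chain, and the 10 probes of C1qc had differences between 1.19 and 1.32.

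Of the genes that mark macrophages more widely, Csf1r had levels of 11.85, 11.96, 11.86 and 11.73 in refed LIRKO livers, against 10.70, 10.49, 10.73 and 10.16 in refed IR floxed livers. The difference was 1.38 ± 0.23 (adjusted p = 0.00015). Its 3 probes disagreed, since the other two had 0.65 ± 0.18 and -0.17 ± 0.13. Adgre1 had levels of 7.80, 8.48, 7.71 and 7.83 in refed LIRKO livers, against 6.73, 6.86, 6.70 and 6.72 in refed IR floxed livers. IR.KO_Refed_558 stood above its group, the difference was 1.24 ± 0.20 (adjusted p = 8.38e-05), and the other probe of Adgre1 had 0.90 ± 0.15. Cd68 had levels of 6.09, 6.07, 5.97 and 6.28 in refed LIRKO livers, against 5.92, 5.63, 5.84 and 5.85 in refed IR floxed livers. Cd68 was the marker that did not pass, with a difference of 0.26 ± 0.11 (adjusted p = 0.132), and over the 37 livers it ranged from 5.57 to 6.39 on a scale whose lowest value was 5.07.

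**Figure D2:**
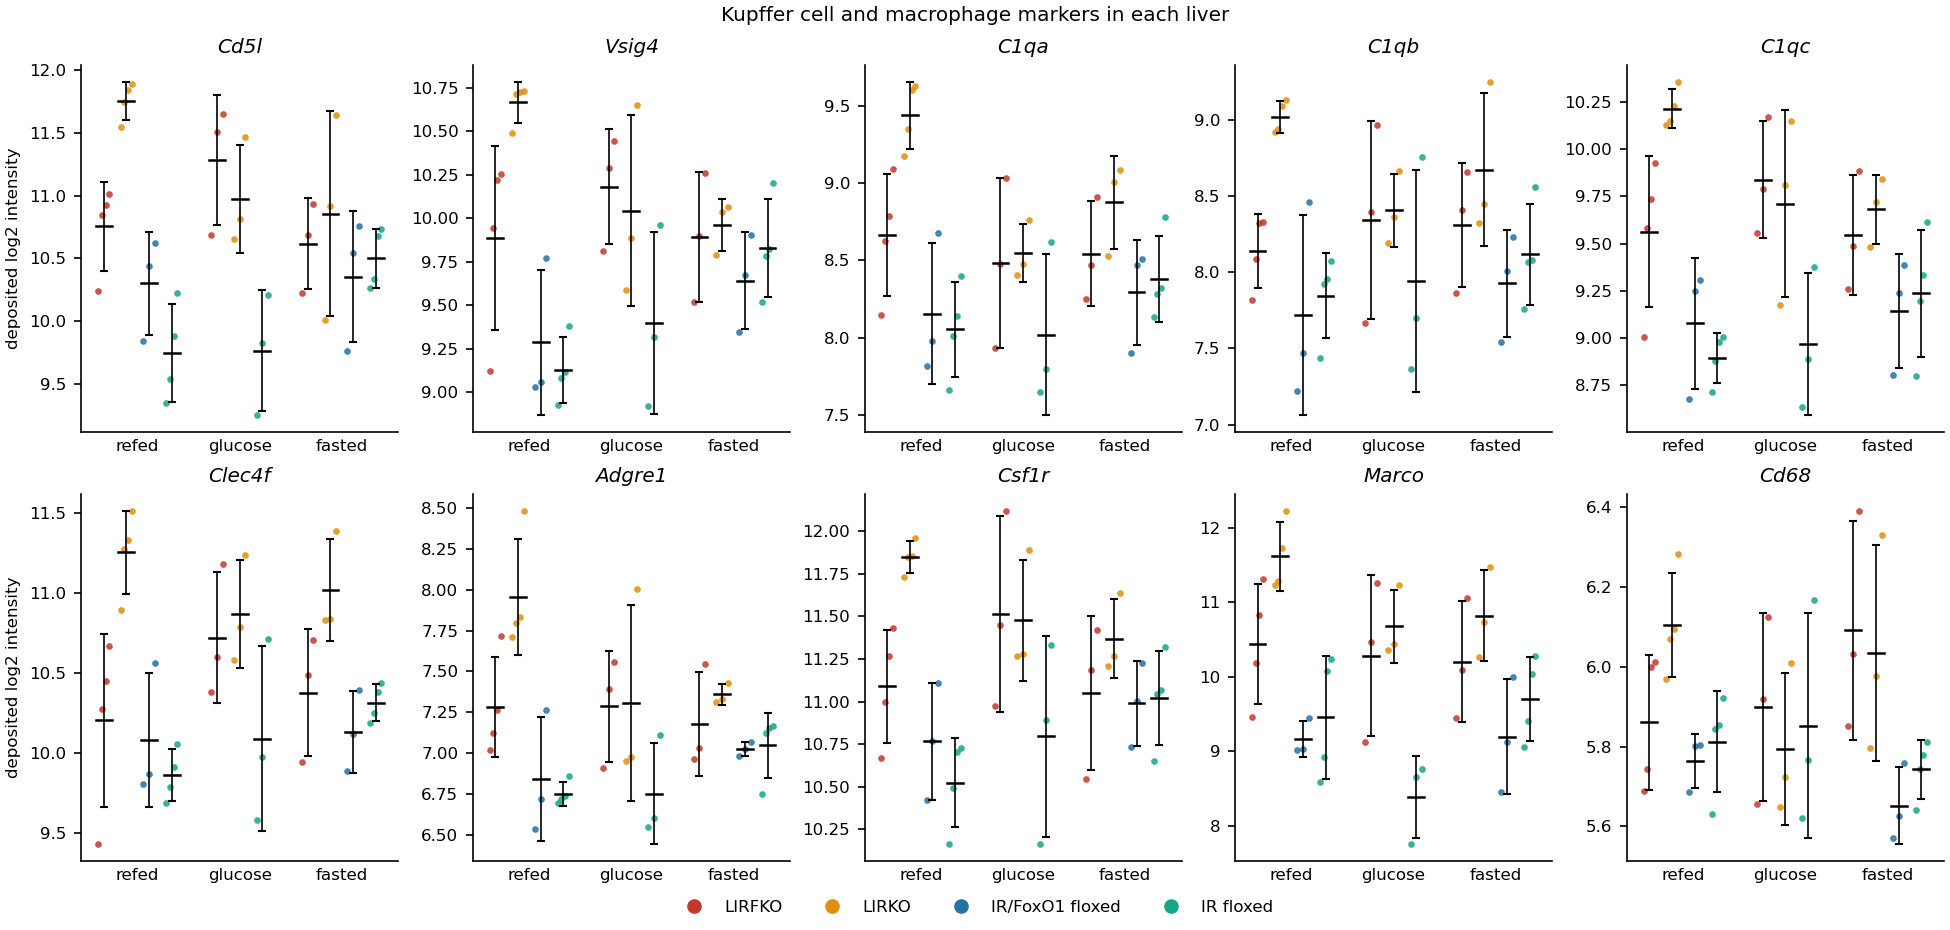
Deposited log2 intensity of each marker in each of the 37 livers, by feeding state and genotype. Points are mice, with group means and SD, vertical scales differ between panels, and the refed LIRKO livers lie above the refed IR floxed livers in all 10 panels.

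The count of 9 was the same without any 1 of the 8 mice. On the 3 slides that held both groups, the median differences of the 10 were 1.25, 1.501 and 1.53, with all 10 above 0 on each. Markers of other liver cells were read beside these values. The mean over 10 hepatocyte markers ranged from 13.8 to 14.2 log2 in refed LIRKO livers, against 14.3 to 14.7 in refed IR floxed livers. 2 of the 10 fell, Ttr, the gene of the carrier protein transthyretin, by 1.74 ± 0.25 (adjusted p = 2.42e-05) and Hnf4a, a transcription factor of hepatocytes, by 0.42 ± 0.13 (adjusted p = 0.0357). The mean over 10 sinusoidal endothelial markers ranged from 8.83 to 9.03 in refed LIRKO livers, against 8.58 to 8.82 in refed IR floxed livers, and that over 10 stellate cell markers from 7.89 to 8.19 in LIRKO, against 7.55 to 7.95 in IR floxed livers, with overlap. The part of these values in the rise of the macrophage markers was not tested.

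Other genes of macrophages were counted from lists. Of 17 further Kupffer cell genes 9 rose and 1 fell, with a median of 0.52. Axl, a receptor for apoptotic cells, rose by 1.18 ± 0.16 (adjusted p = 1.13e-05), Sdc3, a syndecan, by 1.15 ± 0.18 (adjusted p = 5.61e-05), and Fcna, a ficolin that starts the lectin pathway of complement, by 1.29 ± 0.21 (adjusted p = 9.39e-05). Of 16 genes of macrophages in general 12 rose and 0 fell, with a median of 0.52, among them Cd86, a costimulatory ligand, at 0.76 ± 0.10 (adjusted p = 4.91e-06) and Aif1, which encodes the calcium-binding protein IBA1, at 1.46 ± 0.24 (adjusted p = 8.57e-05). These counts stand beside 11.6% of all genes.

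Genes of newly recruited or activated macrophages were counted in the same way, beside the same 11.6% of all genes. Of 8 monocyte and recruited macrophage genes 3 rose, with a median of 0.32, namely Plac8 at 1.01 ± 0.17 (adjusted p = 0.000147), Ly6c1, also a gene of endothelial cells, at 1.11 ± 0.29 (adjusted p = 0.00929) and Cx3cr1, the fractalkine receptor, at 0.78 ± 0.24 (adjusted p = 0.031). The mean over these 8 ranged from 7.43 to 7.68 in refed LIRKO livers, against 6.94 to 7.22 in refed IR floxed livers. Of 7 lipid-associated macrophage genes 4 rose, with a median of 0.48, including Trem2, a lipid-sensing receptor, at 0.65 ± 0.19 (adjusted p = 0.0231) and Lgals3, galectin-3, at 1.21 ± 0.25 (adjusted p = 0.00141). Of 12 inflammatory mediators 1 rose, with a median of 0.12, and that was Il1rn, the antagonist of the IL-1 receptor, at 0.74 ± 0.12 (adjusted p = 0.000112). Tnf, Il6, Ccl3, Ccl4, Il10 and Ptgs2 of this list had means between 5.48 and 5.66 over the 37 livers. On a scale whose lowest value was 5.07, changes in such genes may be understated. Of 13 growth and transcription factors of macrophages 1 rose, the myeloid factor Irf8 at 0.85 ± 0.14 (adjusted p = 0.000117), and 1 fell, Id3, a transcription factor that Kupffer cells need, by 0.99 ± 0.33 (adjusted p = 0.0488). Id3 was also the 1 that fell among the further Kupffer cell genes. In the IR floxed controls, Id3 was higher refed than fasted, by 1.56 ± 0.33 (adjusted p = 0.00742).

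C1q acts with partners in the classical pathway, many of them made by hepatocytes. Of 8 measured partners 0 rose, 3 fell and 5 did not pass, with a median of -0.49, where 11.6% of all genes passed. The mean over the 8 overlapped between the groups, ranging from 12.37 to 12.69 in refed LIRKO livers, against 12.59 to 13.40 in refed IR floxed livers. C4bp, an inhibitor of the pathway, fell by 1.42 ± 0.25 (adjusted p = 0.000264), C4b, a complement component cleaved by C1s, fell by 0.80 ± 0.24 (adjusted p = 0.0274), and Serping1, the C1 inhibitor, fell by 0.51 ± 0.16 (adjusted p = 0.0364).

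Of markers of other blood cells, 0 of 10 for neutrophils and 0 of 6 for dendritic cells passed, 2 of 5 for B cells rose, and of 11 for T and NK cells Gzma rose and Cd3e fell. Cd3e had a mean of 8.61 over the 37 livers, against 5.88 for Cd3d and 5.55 for Cd3g. Which cells its probe reads was not tested. 2 of 10 sinusoidal endothelial, 3 of 10 stellate, 0 of 5 cholangiocyte and 0 of 5 erythroid markers rose, and none of these fell. Beside the counts for all these cell types, 11.6% of all genes passed in either direction and 6.95% in the upward one. Ms4a1, a B cell marker that rose, did so by 0.21 at a mean of 5.51 over the 37 livers, near the low end of the scale.

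**Figure D3:**
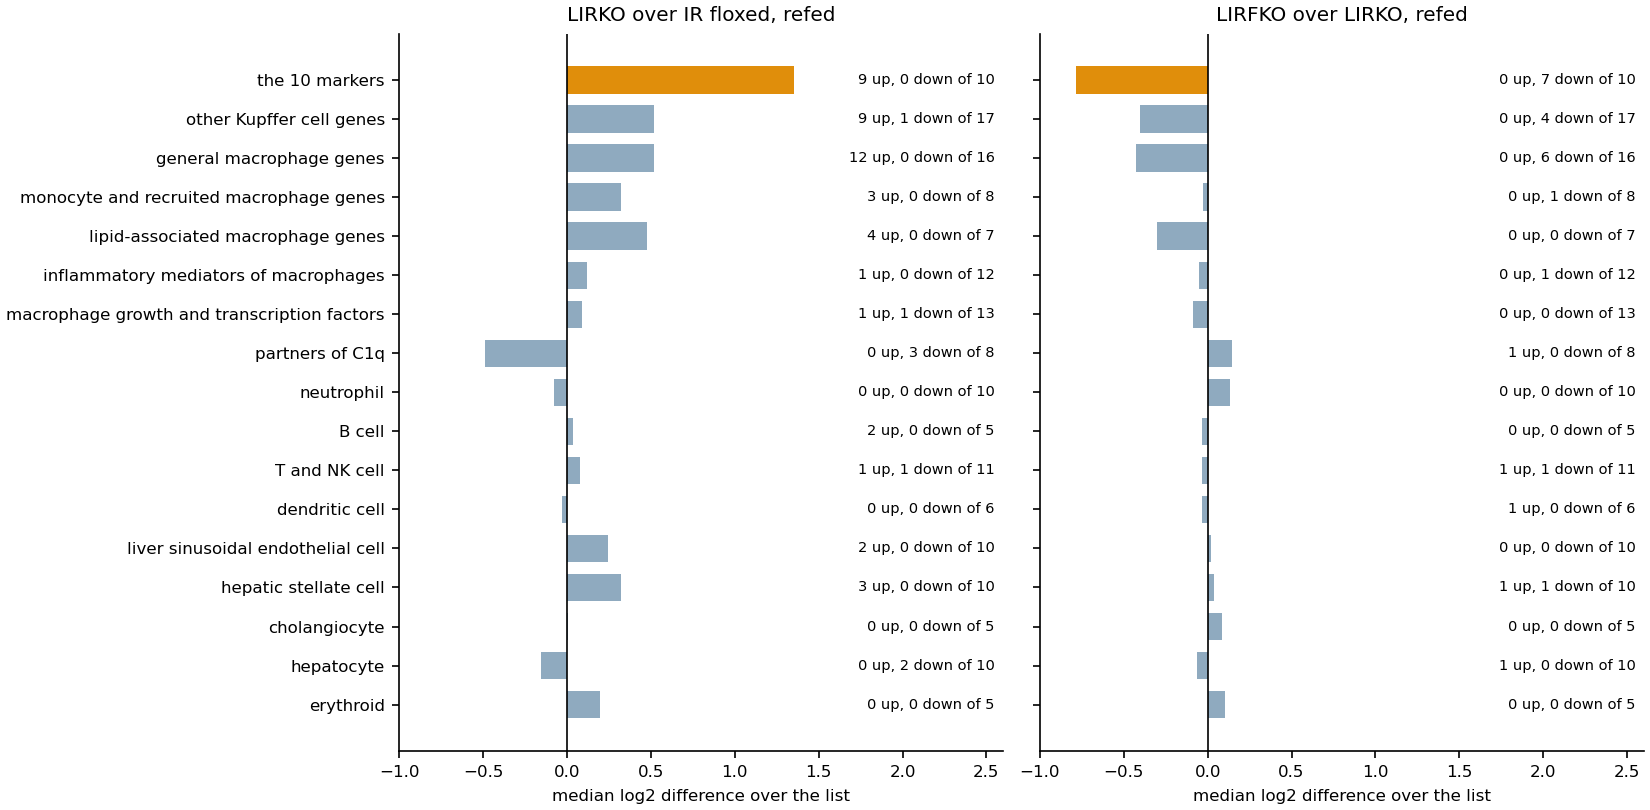
Median log2 difference of each gene list (bars, horizontal axis) in refed LIRKO over IR floxed livers and in refed LIRFKO over LIRKO livers. The numbers beside the bars count the genes that passed in each direction of those measured, and the bar of the 10 markers stands at 1.36 on the left and at -0.79 on the right.

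After glucose, Marco alone rose among the 10 markers, where 8.3% of all genes passed in either direction and 4.39% in the upward one. Marco had levels of 10.44, 10.36 and 11.24 in glucose LIRKO livers, against 7.76, 8.65 and 8.76 in glucose IR floxed livers, a difference of 2.23 ± 0.51 (adjusted p = 0.00578). Its groups did not overlap, nor did those of Cd5l, which makes 2 markers against 8.1% of all genes. Cd5l had levels of 11.46, 10.65 and 10.81 in glucose LIRKO livers, against 10.21, 9.83 and 9.25 in glucose IR floxed livers, a difference of 0.96 ± 0.32 (adjusted p = 0.0613). The median of the 10 was 0.52, with 9 estimates above 0 and 5 at an unadjusted p under 0.05. Marco no longer passed without IR.fl_GTT_699 (adjusted p = 0.0568), where the count of markers became 3, nor in a fit of these 2 groups alone (adjusted p = 0.224). Without IR.KO_GTT_667 the count became 3 as well. On the 2 slides with 1 mouse of each genotype, the median of the 10 was -0.13 and 0.98, and Marco differed by 2.601 and 2.58.

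Of the lists, 3 of 16 genes of macrophages in general rose after glucose, among them Aif1 at 1.29 ± 0.27 (adjusted p = 0.00312). 2 of 17 further Kupffer cell genes rose, beside 4.39% of all genes in the upward direction and 8.3% in either, Axl at 0.82 ± 0.19 (adjusted p = 0.0062) and Spic, a transcription factor of iron-handling macrophages, at 0.70 ± 0.18 (adjusted p = 0.0154). 4 of 10 hepatocyte markers fell in the same livers, among them Cps1, which starts the urea cycle, by 1.47 ± 0.35 (adjusted p = 0.00841).

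In fasted mice 0 markers passed in limma, where 8.06% of all genes did. All 10 estimates were above 0, between 0.087 and 0.99 with a median of 0.40, and 2 had an unadjusted p under 0.05. Clec4f and Adgre1 were the 2 markers whose groups did not overlap, LIRKO higher, against 7.17% of all genes. Clec4f had levels of 10.83, 11.38 and 10.84 in fasted LIRKO livers, against 10.38, 10.25, 10.19 and 10.44 in fasted IR floxed livers, a difference of 0.68 ± 0.26 (adjusted p = 0.118). The macrophage lists are given beside the same 8.06% of all genes. Of 17 further Kupffer cell genes 0 rose and 1 fell, Slc40a1, the iron exporter ferroportin, by 0.56 ± 0.16 (adjusted p = 0.0245), while the median of the list was 0.22 and 13 estimates were above 0. Of 16 genes of macrophages in general 1 rose, Cd14, the coreceptor for bacterial lipopolysaccharide, at 1.54 ± 0.45 (adjusted p = 0.0319). Of 12 inflammatory mediators 1 rose, Il1rn at 1.04 ± 0.13 (adjusted p = 1.15e-05), of 7 lipid-associated genes 1, the integrin gene Itgax at 0.21 ± 0.06 (adjusted p = 0.0255), and of 13 growth and transcription factors 1, Irf8 at 0.51 ± 0.15 (adjusted p = 0.0388). Itgax had a mean of 5.55 over the 37 livers, near the low end of the scale. Of 8 monocyte and recruited macrophage genes 0 passed.

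**Figure D4:**
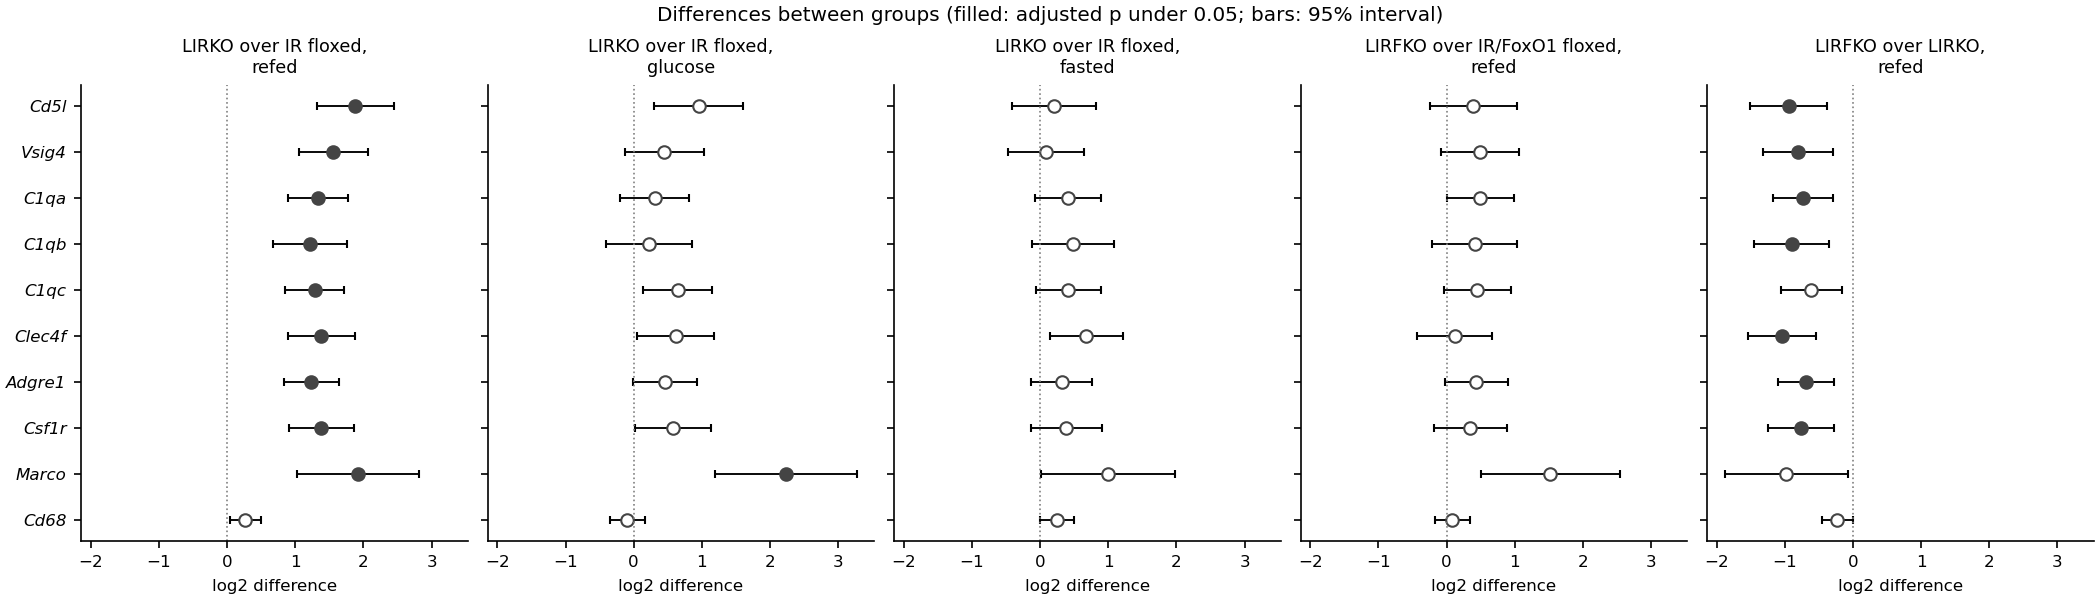
Log2 differences of the 10 markers in 5 comparisons between groups, with 95% intervals as bars. Filled points passed in limma, and they number 9 for refed LIRKO over IR floxed, 1 after glucose, 0 fasted, 0 for refed LIRFKO over IR/FoxO1 floxed and 7 for refed LIRFKO over LIRKO.

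Whether the difference between LIRKO and IR floxed livers depended on the feeding state was tested in the same fit. Between refed and fasted mice 0 markers passed in limma, where 0.165% of all genes did, while all 10 estimates were above 0 with a median of 0.92 and 6 had an unadjusted p under 0.05. Cd5l had 1.67 ± 0.40 (adjusted p = 0.0907) and Vsig4 1.47 ± 0.36 (adjusted p = 0.0966). Without IR.KO_Fast_545 the count became 1. Between refed and glucose mice, a contrast added after the values were known, 0 markers passed, where 0.596% of all genes did, while 9 estimates were above 0 with a median of 0.79 and 8 had an unadjusted p under 0.05. C1qa had 1.02 ± 0.31 (adjusted p = 0.125) and Marco had -0.31 ± 0.64 (adjusted p = 0.929). Without IR.KO_GTT_697 that count became 3. Between glucose and fasted mice 0 markers passed, with 0 at an unadjusted p under 0.05 and a median of 0.17, where 0% of all genes passed.

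Within a genotype, food changed none of the 10 markers past the threshold in limma. In LIRKO livers, refed over fasted, all 10 estimates were above 0 with a median of 0.53, 4 had an unadjusted p under 0.05, and 1.85% of all genes passed. 5 markers did not overlap, refed higher, against 6.06% of all genes. Vsig4 was among these 5, with 10.72, 10.73, 10.49 and 10.73 in refed LIRKO livers, against 9.79, 10.06 and 10.03 in fasted LIRKO livers, a difference of 0.72 ± 0.28 (adjusted p = 0.247). Of the listed macrophage genes, Lyz2 rose by 0.67 ± 0.16 (adjusted p = 0.0211) and Aif1 by 1.05 ± 0.27 (adjusted p = 0.0399) in this comparison. Il1rn fell by 0.52 ± 0.14 (adjusted p = 0.0497) and Il34 by 0.48 ± 0.13 (adjusted p = 0.0488), beside the same 1.85% of all genes. In IR floxed livers 9 estimates were below 0 with a median of -0.37, 3 had an unadjusted p under 0.05, and 3.61% of all genes passed. Cd5l, Vsig4 and Clec4f did not overlap, refed lower, against 3.36% of all genes. Vsig4 had 8.93, 9.08, 9.38 and 9.11 in refed IR floxed livers, against 9.78, 9.82, 9.52 and 10.20 in fasted IR floxed livers, a difference of -0.75 ± 0.25 (adjusted p = 0.0999).

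In LIRFKO livers, refed over fasted, the median was 0.070, with 0 markers at an unadjusted p under 0.05 and 1.81% of all genes passing. In IR/FoxO1 floxed livers it was -0.20, or -0.11 without IRF.fl_Fast_523, with 0 markers at an unadjusted p under 0.05 and 3.54% of all genes passing. Glucose over fasting also gave 0 calls among the markers in limma. The median was 0.23 in LIRFKO livers, with 0 at an unadjusted p under 0.05 and 0.654% of all genes passing. It was -0.14 in LIRKO livers, with 0 at an unadjusted p under 0.05 and 0.596% of all genes passing. It was -0.25 in IR floxed livers, with 2 at an unadjusted p under 0.05 and 0.16% of all genes passing. Marco was 1 of these 2, with 7.76, 8.65 and 8.76 in glucose IR floxed livers, against 9.06, 10.28, 9.41 and 10.04 in fasted IR floxed livers, a difference of -1.34 ± 0.51 (adjusted p = 0.415).

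In mice that lack FoxO1 as well, the markers were set against the floxed mice of that line. Refed LIRFKO over IR/FoxO1 floxed livers had 0 calls in limma, where 0.378% of all genes passed, while all 10 estimates were above 0 with a median of 0.42 and 2 had an unadjusted p under 0.05. Marco had levels of 10.83, 11.31, 10.18 and 9.46 in refed LIRFKO livers, against 9.44, 9.02 and 9.03 in refed IR/FoxO1 floxed livers, a difference of 1.52 ± 0.50 (adjusted p = 0.2) between groups that did not overlap. Clec4f had levels of 10.67, 9.43, 10.28 and 10.45 in refed LIRFKO livers, against 9.87, 9.81 and 10.56 in refed IR/FoxO1 floxed livers, a difference of 0.12 ± 0.27 (adjusted p = 0.938). The 95% interval of Clec4f ran from -0.44 to 0.67. Fasted, the same genotypes had 0 calls, 1 marker at an unadjusted p under 0.05, a median of 0.16, or 0.21 without IRF.fl_Fast_523, and 0.00445% of all genes passing.

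The 2 knockout effects in refed mice were set against each other, LIRFKO over its floxed line minus LIRKO over its floxed line, in a contrast added after the values were known. 0 of 10 markers passed in limma, where 1.32% of all genes did, while all 10 estimates were below 0 with a median of -0.83 and 7 had an unadjusted p under 0.05. Cd5l had -1.48 ± 0.41 (adjusted p = 0.0674) and Clec4f -1.26 ± 0.35 (adjusted p = 0.0738). Marco had -0.40 ± 0.65 (adjusted p = 0.883), with a 95% interval from -1.73 to 0.93. Without IRF.KO_Refed_468 the count became 1, and likewise without IRF.fl_Refed_473.

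Refed LIRFKO livers were also set directly against refed LIRKO livers. Between LIRFKO and LIRKO mice, in any state, the loss of FoxO1 and the difference of mouse line cannot be told apart. 7 of the 10 markers fell and C1qc, Marco and Cd68 did not pass, where 8.09% of all genes passed in either direction and 4.43% in the downward one. The count was between 1 and 5 without any 1 of the 8 mice. The median of the 10 was -0.79, and that of all genes was 0.0026. The groups did not overlap for 7 markers, LIRFKO lower, against 7.28% of all genes. These 4 refed LIRKO livers are the same as in the comparison with IR floxed mice.

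Clec4f had levels of 10.67, 9.43, 10.28 and 10.45 in refed LIRFKO livers, against 10.89, 11.51, 11.27 and 11.33 in refed LIRKO livers, and fell by 1.04 ± 0.24 (adjusted p = 0.00581). Vsig4 had levels of 10.26, 9.12, 9.95 and 10.22 in refed LIRFKO livers, against 10.72, 10.73, 10.49 and 10.73 in refed LIRKO livers, and fell by 0.81 ± 0.25 (adjusted p = 0.0424). In both genes IRF.KO_Refed_478 was the lowest of the 8 and the groups did not overlap. Marco had levels of 10.83, 11.31, 10.18 and 9.46 in refed LIRFKO livers, against 11.29, 11.23, 12.23 and 11.72 in refed LIRKO livers. Its groups overlapped, and the difference of -0.98 ± 0.44 (adjusted p = 0.198) did not pass.

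Cd5l had levels of 10.84, 10.24, 10.93 and 11.01 in refed LIRFKO livers, against 11.54, 11.89, 11.84 and 11.74 in refed LIRKO livers, and fell by 0.95 ± 0.28 (adjusted p = 0.0318). Of the chains of C1q, C1qa fell by 0.74 ± 0.21 (adjusted p = 0.0311) and C1qb by 0.90 ± 0.27 (adjusted p = 0.0351). C1qc had levels of 9.93, 9.005, 9.58 and 9.74 in refed LIRFKO livers, against 10.36, 10.15, 10.23 and 10.13 in refed LIRKO livers, with no overlap, and its difference of -0.61 ± 0.22 (adjusted p = 0.0818) did not pass. The 10 probes of C1qc had differences between -0.65 and -0.49. Csf1r fell by 0.77 ± 0.23 (adjusted p = 0.0406) and Adgre1, whose groups overlapped, by 0.68 ± 0.20 (adjusted p = 0.0316), while Cd68 had -0.23 ± 0.11 (adjusted p = 0.225). The value of Csf1r is that of 1 of its 3 probes, and it lay between -0.77 and -0.42 over 9 other settings of the processing.

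By mouse left out, the count was 2, 1, 1 and 2 without IR.KO_Refed_553, IR.KO_Refed_558, IR.KO_Refed_564 or IR.KO_Refed_565, and 5, 4, 1 and 1 without IRF.KO_Refed_468, IRF.KO_Refed_469, IRF.KO_Refed_478 or IRF.KO_Refed_524, with a median difference between -0.995 and -0.60 throughout. Clec4f passed in each of these 8 fits, with an adjusted p of at most 0.0343, but not in a fit of these 2 groups alone (adjusted p = 0.0584). On the 3 slides that held both groups the medians were -0.61, -0.62 and -1.28.

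Of the lists in refed LIRFKO over LIRKO livers, 4 of 17 further Kupffer cell genes fell, including Axl by 0.71 ± 0.16 (adjusted p = 0.00559) and Timd4, a receptor for phosphatidylserine, by 0.60 ± 0.16 (adjusted p = 0.019). 6 of 16 genes of macrophages in general fell, among them Cd86 by 0.51 ± 0.10 (adjusted p = 0.00122) and Fcgr3, an Fc receptor, by 0.59 ± 0.12 (adjusted p = 0.00178). Of the monocyte genes Plac8 fell by 0.68 ± 0.17 (adjusted p = 0.0121), of the inflammatory mediators Il1rn by 0.66 ± 0.12 (adjusted p = 0.00073), and 0 of 7 lipid-associated genes and 0 of 13 growth and transcription factors passed. Of the partners of C1q C4bp alone passed, and it rose by 1.36 ± 0.25 (adjusted p = 0.000839). Of the 10 hepatocyte markers Ttr alone passed, and it rose by 1.42 ± 0.25 (adjusted p = 0.000556). The mean over 10 hepatocyte markers ranged from 14.16 to 14.38 in refed LIRFKO livers, against 13.82 to 14.22 in refed LIRKO livers, and its part in the fall of the macrophage markers was not tested. Of the other cell types, 0 of 10 neutrophil, 0 of 5 B cell, 0 of 10 sinusoidal endothelial, 0 of 5 cholangiocyte and 0 of 5 erythroid markers passed. Several neutrophil and B cell markers lay near the low end of the scale. All list counts in this comparison stand beside 8.09% of all genes in either direction and 4.43% in the downward one. Cd3e of the T cell, Siglech of the dendritic cell and Col1a1 of the stellate cell list rose, and Gzma and Rgs5 fell.

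In the other states LIRFKO and LIRKO livers gave no call among the markers in limma. Fasted, 6.52% of all genes passed, the median of the 10 was -0.31, and 1 marker, Clec4f, had an unadjusted p under 0.05, with a difference of -0.68 ± 0.28 (adjusted p = 0.159). After glucose, 7.57% of all genes passed, the median was 0.044, and 0 markers had an unadjusted p under 0.05. The refeeding responses of LIRFKO and LIRKO mice differed by a median of -0.40, with 0 markers at an unadjusted p under 0.05 and 0.0222% of all genes passing. Their glucose responses differed by a median of 0.38, with 0 at an unadjusted p under 0.05 and 0.0578% of all genes passing.

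The 2 floxed lines gave no call among the markers in limma either. Refed IR/FoxO1 floxed over IR floxed livers had a median of 0.17, with 0 markers at an unadjusted p under 0.05 and 0.0845% of all genes passing. Fasted, the median was -0.072, or -0.076 without IRF.fl_Fast_523, with 0 markers at an unadjusted p under 0.05 and 0.0356% of all genes passing. Cd5l had a refed difference of 0.54 ± 0.30 (adjusted p = 0.869), with a 95% interval from -0.07 to 1.14. The refeeding response differed between the floxed lines by a median of 0.15 and between LIRFKO and IR/FoxO1 floxed mice by a median of 0.31, with 0 markers at an unadjusted p under 0.05 and 0.00445% of all genes passing in each. Without IRF.fl_Fast_523 these medians were 0.22 and 0.12.

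Correlations between the markers were taken over the 37 livers, which share arrays and groups. Over the 45 pairs the median Pearson r was 0.806, between 0.275 and 0.933. After each group's mean was taken out, the median was 0.586, between -0.059 and 0.869, and 41 pairs were above 0. Cd68 and Marco were the markers least tied to the rest within groups. Cd68 had r between -0.059 and 0.252 with the other 9, and Marco between -0.019 and 0.247. With the group means left in, Cd68 had r between 0.275 and 0.497 and Marco between 0.428 and 0.703.

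The genes most like the mean of the 10 markers over the 37 livers, outside the 10, were Axl at r = 0.957, Tyrobp at 0.92, Slc11a1 at 0.916 and Vav1 at 0.914. Tyrobp encodes the adaptor DAP12 of myeloid receptors, Slc11a1 a metal transporter of macrophage phagosomes, and Vav1 a signalling protein of blood cells. Ncf4, Cd300c2, Nckap1l and Itgb2 came next, between 0.897 and 0.903. With the group means taken out, Tyrobp was first at 0.903, followed by Axl at 0.861, Ncf4, a subunit of the phagocyte oxidase, at 0.828 and Nckap1l at 0.821. Sdc3, Themis2, Apbb1ip and Clec4a1 came next, between 0.793 and 0.82.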

How the data were processed

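RNA of 38 mouse livers was measured on 20 Agilent two-colour arrays on 5 slides, each dye channel holding its own sample. The authors deposited log2 intensities per feature and sample. Per the submitters' processing notes R 3.1.0 and limma 3.20.1 were used, while for background correction and normalization the method was not given in the sources used here. Values ran from 5.07 to 16 log2, so differences of genes near the low end may be understated. Of 45220 features 33026 had 1 gene in the platform's annotation and 12194 had none, and the probe of highest mean stood for each of 22485 genes.

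Groups came from the sample titles, and each replicate is a separate mouse. 37 samples were fitted with limma 3.58.1 and statmod 1.5.0 in R 4.3.3, with a mean per group, the dye as a term and the array as a random block (correlation 0.358), so a difference can depart a little from that of the group means. P-values were adjusted by Benjamini-Hochberg over all genes in each comparison. 17 comparisons of groups and 8 differences between them were made, of which 2 differences were added after the values were known. The fit was tested on simulated data.

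The markers and all lists were chosen with earlier results of these data known. The text names all 10 markers, up to 3 genes of smallest p per list among those that passed, and the 8 genes most correlated with the markers' mean, over all samples and within groups. Alternatives were another probe rule, no array block, no dye term, slide as a block, no IRF.fl_Fast_523, genes above the median level, quantile normalization, only the compared groups, a trended prior, each mouse left out, differences within slides and Spearman's rho. Some listed genes are not reported here, and list counts are of the genes measured. Coordinates other than promoter windows are not given, as the files name no build.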

Additional observations from a re-analysis of the deposited data

Results flagged for a closer look

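Of 40 sets of 4 mice tested for a mouse far from its group, 3 held one, where chance alone gives about 1 in 20 such sets, or about 2 of 40. Vsig4 in IR.KO_Refed_564 was at 10.489 log2, with the other mice between 10.716 and 10.732. Adgre1 in IR.KO_Refed_558 was at 8.4834, with the others between 7.7103 and 7.8302. Adgre1 in IR.fl_Fast_491 was at 6.751, with the others between 7.1237 and 7.1673. Both genes still passed in refed LIRKO over IR floxed livers without any 1 mouse.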

How the results depend on the processing

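Of 450 recomputed counts of markers that passed, over 25 comparisons, 425 lay within 1.5 times the reported count and 25 did not. Most of the reported counts were 0, and most of the 425 were counts of 0 that stayed at 0. Of 287 recomputed differences over the 17 called marker results, 229 kept direction and call, 58 kept the direction and lost the call, and 0 turned. The 9 calls in refed LIRKO over IR floxed livers stood in every alternative. For refed LIRFKO over LIRKO livers the count of 7 became 3 with no array block, with no dye term, with slide as a block and with only the compared groups, and 1 to 5 without 1 mouse. For LIRKO over IR floxed after glucose the count of 1 became 2 with no array block, with no dye term and over genes above the median level, 0 with only the compared groups, and 1 to 3 without 1 mouse. With only the compared groups, 1 marker passed in LIRKO refed over fasted, 1 in IR floxed refed over fasted and 1 in the difference of the refed knockout effects of the LIRFKO and LIRKO lines, and that difference had 2 over genes above the median level. Leaving out 1 mouse gave 0 to 1 for that difference, 0 to 1 for the refeeding response of LIRKO minus IR floxed mice, and 0 to 3 for the LIRKO effect refed minus glucose. The causes were not tested. By Spearman's rho, Cd300c2 had 0.871 over all samples, and Apbb1ip 0.723 and Clec4a1 0.701 within groups. No paired analysis was possible because the groups share no mouse numbers by which to pair them. Mice that share an array or a slide were handled by the blocks and the within-slide differences. Cd68 lay near the low end of the scale.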

Other observations

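IRF.KO_GTT_724, titled a glucose LIRFKO mouse and labelled fasted in its treatment, was in no group. Its levels were 10.911 for Cd5l, 10.123 for Vsig4, 10.712 for Clec4f, 9.6897 for Marco, 11.251 for Csf1r and 7.0681 for Adgre1. C1qa was at 8.924, C1qb at 8.4699, C1qc at 9.6597 and Cd68 at 6.0024.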
